A study of Homo sapiens with 2 samples.

Results

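SW480 is an established human colorectal adenocarcinoma line. The genes described are PARM1, the mucins MUC1, MUC2, MUC4, MUC13, MUC17 and MUC20, and the trefoil factors TFF1, TFF2 and TFF3, 10 of the 18417 genes with a probe set of their own in the deposited array table. They were chosen by gene symbol, each had 1 probe set, and 0 probe sets with several symbols held any of them. PARM1 was included with its difference between the arrays already known, and the other genes with at least some of their values known, so all values are given as a description. The study compared SW480 cells in which a stably introduced pTarget vector carried the TFAP2E coding sequence (AP-2 epsilon, an AP-2 family transcription factor) with SW480 cells carrying the empty vector. Both kinds of cells were grown under Geneticin for weeks, and clones were then picked singly and their TFAP2E expression was checked. The labels put 1 array in each group and do not say how many clones an array holds. There was therefore no replicate, and no test, error or p-value can be given. The introduced gene, the clone and the array cannot be told apart, and neither can fewer cells with a transcript and less transcript per cell.

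Mucins are large glycoproteins whose serine- and threonine-rich repeats carry dense O-linked sugar chains. Gel-forming mucins such as MUC2 are secreted by goblet cells and build the mucus layer of the colon, whereas transmembrane mucins such as MUC1, MUC4, MUC13, MUC17 and MUC20 stay on the apical membrane of epithelial cells. Trefoil factors are small, cysteine-rich secreted peptides that are released together with mucins and act in mucosal repair. PARM1 is a mucin-like membrane protein, first described as androgen-regulated in prostate.

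Values are RMA values on the log2 scale, and differences are the TFAP2E array minus the empty vector array. A gene is called dim when both of its values lay below 5.55, the median of all probe sets on both arrays. That value is a median of brightness and not a detection limit, and 11548 genes passed it. Among these the median difference was 0.04, the standard deviation 0.219, and 59.2% of genes read higher on the TFAP2E array. The TFAP2E probe set itself read 6.81 on the TFAP2E array and 6.77 on the empty vector array, so that these values do not show the introduced gene and all directions rest on the labels. Most markers of colorectal epithelium passed the filter. Of 14 such markers 13 did, among them EPCAM at 11.1 and 11.2 on the TFAP2E and empty vector arrays, while KRT20 was dim. VIL1 passed through the TFAP2E array only, and ELF3 through the empty vector array only. Of the 13, CDH1 (E-cadherin) at 6.38 and 7.08 (-0.71) and VIL1 (villin) at 6.22 and 4.94 (1.28) differed by at least 1.5-fold. That rule was met by 1.5% of all genes past the filter. Counted from 5.55, the fold of VIL1 came to 1.59. The part of CDH1 and VIL1 in the results below was not tested. Of other cell types, 3 of 12 fibroblast markers (median difference 0.05), 3 of 9 endothelial markers (-0.09) and 3 of 12 leukocyte markers (0.18) passed the filter. Some of these were as bright as epithelial markers, such as ACTA2 at 7.04 and 6.71 on the TFAP2E and empty vector arrays. The median level on the TFAP2E array was 7.37 for the epithelial markers. It was 4.81 for fibroblast, 4.66 for endothelial and 4.47 for leukocyte markers.

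PARM1 and MUC13 stood apart from the other 8 genes, in opposite directions. PARM1 (probe set 8095751) read 6.20 on the empty vector array and 4.53 on the TFAP2E array. It was thus 3.20-fold lower with TFAP2E (difference -1.68). MUC13 (probe set 8090180) read 3.85 on the empty vector array and 5.49 on the TFAP2E array. It was thus 3.12-fold higher with TFAP2E (difference 1.64). The remaining genes lay between -0.25 and 0.21, with a median of -0.08, while the central 95% of the genes past the filter ran from -0.37 to 0.47. Of the remaining genes all but TFF1 and TFF2 were dim, and so are not among the genes that gave this range. Of the 10 genes 7 read lower and 3 higher. Among genes past the filter 59.2% read higher, but most of the 10 were dim and are not among those genes. The share among dim genes is not given here, so no tilt of the 10 genes is read from these counts. Under 3 other scalings 0 of the 10 changed sign. These scalings use the same 2 arrays and move the differences little, so unchanged signs do not settle a direction.

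**Figure D1:**
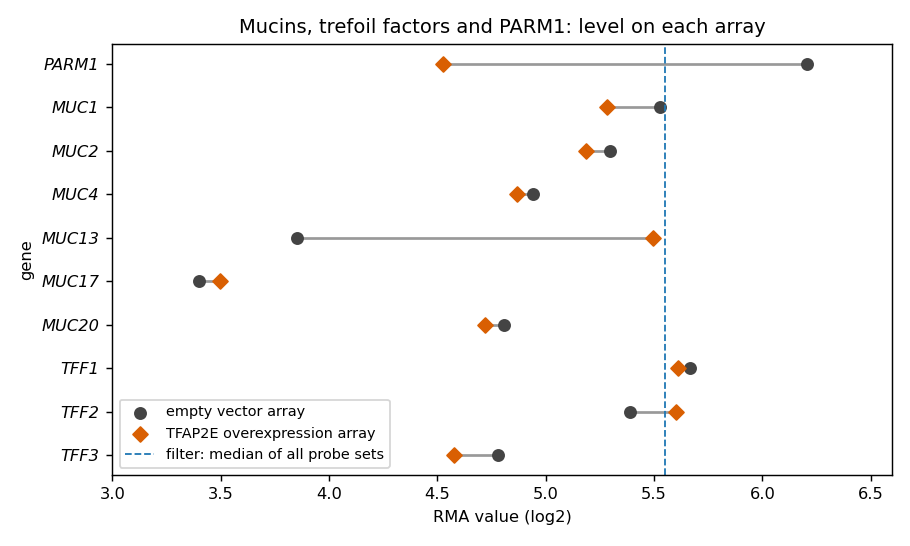
Log2 RMA value of each gene on the empty vector array (grey circles) and the TFAP2E overexpression array (orange diamonds), 1 array each, with the filter value of 5.55 as a dashed line. PARM1 reads 6.20 on the empty vector array and 4.53 on the TFAP2E array, MUC13 reads 3.85 and 5.49, and the other genes differ by at most 0.25 in size.

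PARM1, TFF1 and TFF2 passed the filter, 3 of the 10 genes, and 7 were dim on both arrays. Of those that passed, PARM1 alone differed by 2-fold, a rule met by 0.113% of all genes past the filter in the lower direction and by 0.199% in either direction. Since PARM1 was chosen from this contrast, nothing is read from that share. DKK4, a secreted Wnt antagonist, was the 1 gene past the filter with a lower difference than PARM1. The next genes above it in order of the difference were ALDH1A3 (-1.31), which makes retinoic acid, the pregnancy-specific glycoprotein PSG1 (-1.27) and the GABA receptor subunit GABRA3 (-1.23).

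The PARM1 probe set went from percentile 59.3 of all probe sets on the empty vector array to percentile 35.03 on the TFAP2E array. Its value on the TFAP2E array was below the filter value, and a fold counted only between 5.55 and its empty vector value came to 1.58. Genes of like brightness are given beside it. Of the 1423 genes with a mean within 0.25 of that of PARM1, 4 with PARM1 among them differed by 2-fold (0.281%). The differences of the 1423 had a standard deviation of 0.233, and 1 gene, PARM1 itself, differed by as much as PARM1. As PARM1 was chosen from this contrast, nothing is read from these counts either.

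MUC13, an epidermal growth factor domain-bearing mucin of the intestinal surface, missed the filter by 0.06. Its probe set moved from percentile 24.6 on the empty vector array to percentile 49.4 on the TFAP2E array. Of the 6869 dim genes 3 differed by 2-fold in either direction (0.0437%), and 2 of these, MUC13 and the uncharacterised LOC100419773 (2.15), were higher on the TFAP2E array (0.0291%). Of 1288 genes with a mean within 0.25 of that of MUC13, 1 differed by 2-fold, and that gene was MUC13. Among genes past the filter 2 had a higher difference than MUC13, and 0.0866% were at least 2-fold higher. Without a filter, 2 of the 10 genes and 0.141% of all 18417 genes differed by 2-fold. MUC13 was singled out here by its difference, so nothing is read from these shares. Because the higher of its values lay just under the filter, whether MUC13 counts among the called genes depends on where the filter is set.

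**Figure D2:**
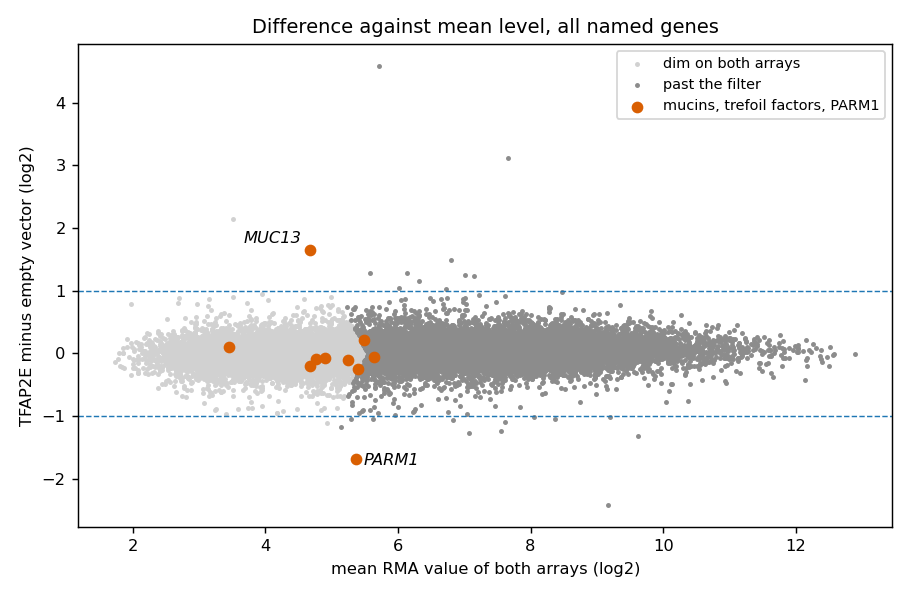
Difference between the arrays (log2) against the mean of both arrays (log2 RMA value) for all 18417 named genes, with genes dim on both arrays in light grey, genes past the filter in dark grey and the 10 genes described in orange. Dashed lines mark 2-fold; PARM1 at -1.68 and MUC13 at 1.64 lie outside them and the other 8 genes lie in the body of the cloud.

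The start regions of PARM1 and MUC13 are shown because these genes differed most and because the introduced factor belongs to a family that binds GC-rich DNA. RefSeq promoter sequences (build GRCh38.p14) were matched by symbol for 6 of the 10 genes, PARM1, MUC1, MUC2, MUC4, MUC13 and MUC17, and the 250 bases before the annotated start were read. The AP-2 consensus GCCNNNGGC, which is its own reverse complement and so was searched on both strands at once, is in capitals where present. Forms with another spacing were not searched, so the counts are of this form alone. The PARM1 window lies at chr4:74932866-74933115 on the plus strand, and the MUC13 window at chr3:124934752-124935001 on the minus strand.
PARM1: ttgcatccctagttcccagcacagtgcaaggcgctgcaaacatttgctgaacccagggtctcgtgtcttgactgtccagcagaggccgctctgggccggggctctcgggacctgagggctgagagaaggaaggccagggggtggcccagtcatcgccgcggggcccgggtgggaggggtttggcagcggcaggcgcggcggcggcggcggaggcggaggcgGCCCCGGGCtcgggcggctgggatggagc
MUC13: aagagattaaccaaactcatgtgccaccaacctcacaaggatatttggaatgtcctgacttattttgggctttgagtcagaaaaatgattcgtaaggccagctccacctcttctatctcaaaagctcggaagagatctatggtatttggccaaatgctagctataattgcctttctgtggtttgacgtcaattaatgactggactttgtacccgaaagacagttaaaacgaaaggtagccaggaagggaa
The PARM1 window held 1 match, GCCCCGGGC, beginning 29 bases before the start, and the MUC13 window held 0. G and C made up 71.2% of the bases in the PARM1 window and 41.6% in that of MUC13, against a median of 58.0% over the 35116 promoter windows of the table. Neither value is extreme there, since 17.2% of windows held more G and C than that of PARM1 and 15.6% less than that of MUC13. The motif was in 19.8% of those windows. Of the other genes, MUC1 held 1 match, GCCTAGGGC, in each of its overlapping windows, and MUC2, MUC4 and MUC17 held 0. A match describes the letters in the window and not binding, and binding was not measured.

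MUC1, MUC4, MUC17 and MUC20, the other transmembrane mucins of the set, differed by less than 1.5-fold. MUC1, whose cytoplasmic tail takes part in signalling, read 5.28 on the TFAP2E array and 5.53 on the empty vector array (difference -0.25), and its empty vector value lay 0.02 below the filter. MUC4, a membrane mucin that binds the receptor ERBB2, read 4.87 and 4.94 (-0.08), and MUC20, a small mucin reported to bind the MET receptor, read 4.72 and 4.81 (-0.09), in the same order of arrays. MUC17, a mucin of the enterocyte brush border, read 3.50 and 3.40 (0.10). These 4 genes were dim on both arrays, and no direction is read from differences of this size. MUC20 has a pseudogene in the RefSeq table, MUC20P1, and transcripts of both could bind shared probes. Probe overlap was not checked, so the value of MUC20 is uncertain. From the list of further transmembrane mucins, 6 of 8 genes had a probe set of their own and 2 passed the filter. MUC21 read 5.41 on the TFAP2E array and 6.09 on the empty vector array (-0.68, 1.60-fold lower). It passed the filter only through the empty vector array, and a fold counted from 5.55 came to 1.45. MUC12 read 5.67 and 5.57 (0.10). The 1.5-fold rule was met by 1.5% of all genes past the filter. MUC3A, MUC15, MUC16 and the endothelial mucin EMCN were dim, with differences from -0.33 to 0.12.

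MUC2, the gel-forming mucin of colonic mucus, read 5.19 on the TFAP2E array and 5.29 on the empty vector array (-0.11), dim on both. The other gel-forming and secreted mucins were dim as well. Of 8 genes with a probe set of their own, MUC5B, MUC6, MUC7, MUC19, OVGP1, PRG4, MUCL1 and MUCL3, 0 passed the filter, and their differences ran from -0.87 to 0.53. MUC6 and MUC5B, of the same mucin gene cluster on chromosome 11 as MUC2, differed by 0.20 and -0.11.

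The trefoil factors did not share a direction. TFF1, known as an estrogen-induced peptide of gastric surface cells, read 5.61 on the TFAP2E array and 5.67 on the empty vector array (-0.06). TFF2, the spasmolytic peptide with a pair of trefoil domains, read 5.60 and 5.39 (0.21) and passed the filter on the TFAP2E array only. TFF3, the trefoil factor of intestinal goblet cells, read 4.57 and 4.78 (-0.21) and was dim on both. The levels of TFF1 and TFF2 lay within 0.12 of the filter value at their brighter array. Each of the 3 differences was smaller than 0.219, the standard deviation among genes past the filter, to which the dim TFF3 does not belong.

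Genes of the trefoil factor partners and gastric surface cell list stayed within 1.5-fold. Of its 12 genes with a probe set, 4 passed the filter, 1 higher and 3 lower, with a median of -0.22. CXCR4, a chemokine receptor reported to respond to TFF2, read 8.64 on the TFAP2E array and 8.96 on the empty vector array (-0.33). PSCA differed by -0.31, mesothelin (MSLN) by -0.14 and LINGO3 by 0.13. The gastrokines GKN1 (-0.11) and GKN2 (0.02) were dim.

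Products of goblet cells were mostly dim. Of 22 genes 4 passed the filter, namely the RAB15 effector REP15 (7.16 on the empty vector array, 6.67 on the TFAP2E array, -0.49), LRRC26 (-0.11), the secreted inhibitor-like protein WFDC2, with identical values of 6.44, and CREB3L4 (0.28), a membrane-bound transcription factor. The list's median was -0.06. AGR2, the disulfide isomerase that folds MUC2, was dim at 3.20 and 3.30, and FCGBP, a mucus protein that binds MUC2, was dim at 5.29 and 5.06. Markers of the other differentiated intestinal cells were as sparse. Of 21 absorptive enterocyte markers 4 passed (median 0.14). VIL1 alone of the 4 reached 2-fold, at 6.22 on the TFAP2E array against 4.94 (1.28), a rule met by 0.199% of all genes past the filter. It passed only through the TFAP2E array, and a fold counted from the filter value came to 1.59. Of 11 enteroendocrine markers INSM1 passed, at 6.41 on each array, and of 7 Paneth cell markers 0 did.

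Enzymes of mucin-type O-glycosylation were close to equal on the arrays. Of 38 genes with a probe set 21 passed the filter, 12 higher and 9 lower, with a median of 0.06, near the 0.04 of all genes. None of the 21 reached 1.5-fold. The sialyltransferase ST3GAL1, which caps the core sugar chain, had the highest difference, 7.12 on the TFAP2E array against 6.78 on the empty vector array (0.34), followed by the GalNAc transferase GALNT18 (0.30). The lowest were the chain-extending enzyme B3GNT2, 9.18 against 9.55 (-0.37), and C1GALT1C1 (-0.22), the chaperone that the core enzyme C1GALT1 needs. C1GALT1 itself differed by 0.24.

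Other mucin-like membrane proteins and the regulators of secretory cells also stayed within 1.5-fold. Of 17 sialomucins and mucin-like proteins 12 passed, 6 higher and 6 lower, with a median of 0.02. Podocalyxin (PODXL) read 8.16 on the TFAP2E array and 7.59 on the empty vector array (0.57), and the selectin ligand SELPLG differed by 0.56. The lowest were CD24 (-0.32) and CD164L2 (-0.22). The sialomucin CD164 was bright and level, at 10.3 on each array. Of 20 transcription factors of the secretory lineage and of mucin genes 14 passed, 7 higher and 7 lower, with a median of 0.00. The highest were the ETS factor EHF (0.36) and GATA6 (0.28), and the lowest were KLF4 (-0.20), a factor of goblet cell maturation, and SOX9 (-0.17). ATOH1, which commits cells to the secretory lineage, read 4.82 and 4.96, and SPDEF, which drives goblet cell maturation, read 5.51 and 5.33, so that both were dim. Over the 7 lists of mucin biology, 57 genes passed the filter, with 28 higher, 28 lower and 1 identical on the arrays. The share that read higher was 49.1%, against 59.2% of all genes past the filter. MUC21 was the 1 gene of the 57 past 1.5-fold, 1.75% against 1.5% of all genes, and 0 reached 2-fold. Counted from the filter value, MUC21 was under 1.5-fold too.

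**Figure D3:**
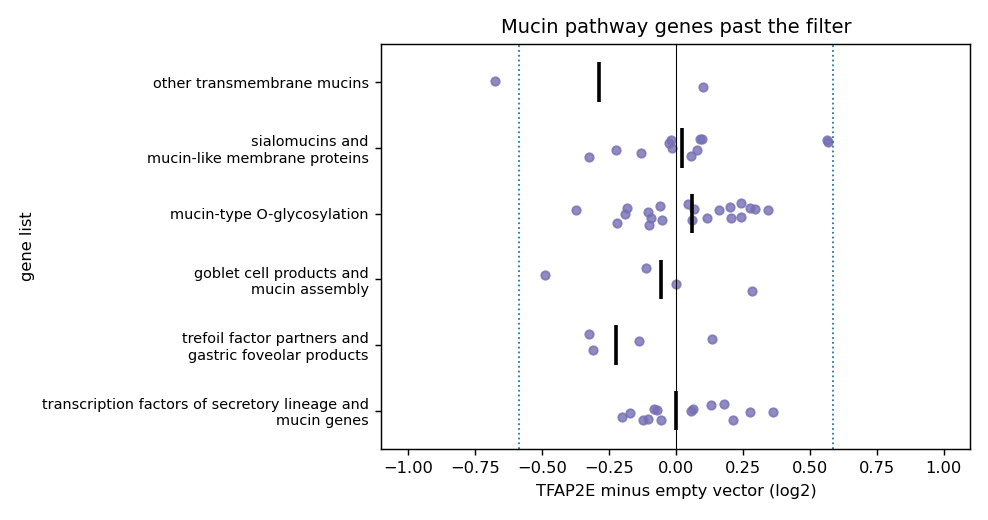
Difference between the arrays (log2) for each gene past the filter in 6 of the 7 lists of mucin biology, 1 point per gene, with the list median as a black bar and dotted lines at 1.5-fold; the gel-forming list had 0 genes past the filter. MUC21 at -0.68 lies outside the dotted lines, and PODXL (0.57) and SELPLG (0.56) lie just inside them.

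The genes beside PARM1 and MUC13 did not share their differences. Neighbours were taken as the 5 nearest genes on each side, in the order of the RefSeq table, that had a probe set of their own. Genes without one, such as AREG beside PARM1 and MUC5AC beside MUC2, were passed over. Beside PARM1 on chromosome 4, 2 of 10 neighbours passed the filter, and the 10 ran from -0.23 to 0.34 with a median of 0.07. The others were dim, where a lower level shows less well. The growth factor genes EREG (-0.18), BTC (-0.22) and EPGN (0.07) and the transcript PARM1-AS1 (-0.23) were dim, while RCHY1 (0.17) and THAP6 (0.08) passed the filter. Beside MUC13 on chromosome 3, 9 of 10 neighbours passed, and the 10 ran from -0.18 to 0.30 with a median of 0.05. The adjacent ITGB5, an integrin subunit, differed by -0.05 and HEG1, itself a mucin-like membrane protein, by -0.18. The 3 trefoil factor genes lie next to each other on chromosome 21, and differed by -0.21 (TFF3), 0.21 (TFF2) and -0.06 (TFF1). MUC20 and MUC4 are neighbours on chromosome 3. The mucins MUC3A (-0.25), MUC12 (0.10) and MUC17 (0.10) follow each other on chromosome 7. There 8 of the 10 neighbours of MUC17 read higher, with a median of 0.21, and 7 of the 10 passed the filter. Among all genes past the filter 59.2% read higher. Beside the other genes described fewer neighbours read higher, down to 3 of 10 beside MUC4 (median -0.15). MOGAT3, a lipid synthesis gene beside MUC17, read 4.98 on the empty vector array and 5.69 on the TFAP2E array (0.71). It passed the filter only through the TFAP2E array. Among 70 neighbours of the 10 genes, MOGAT3 was the 1 gene past 1.5-fold. That rule was met by 1.5% of all genes past the filter and 1.51% of dim genes.

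**Figure D4:**
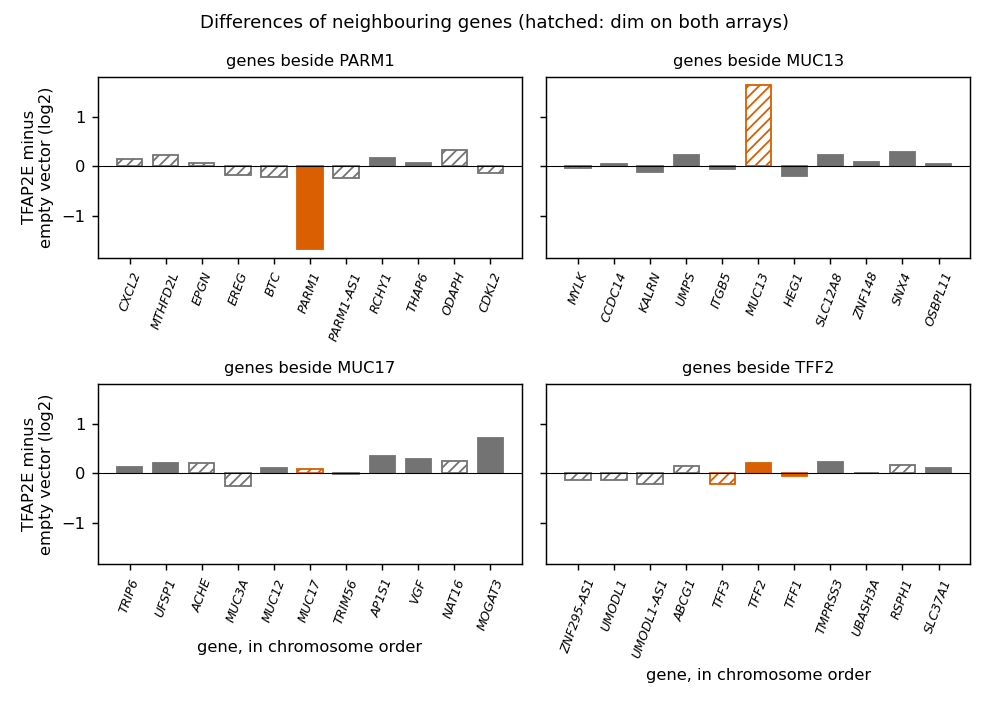
Difference between the arrays (log2) for PARM1, MUC13, MUC17 and TFF2 and the 5 genes with a probe set of their own on each side, in chromosome order and not to distance, with the genes described in orange, other genes in grey and hatching for genes dim on both arrays. The neighbours of PARM1 run from -0.23 to 0.34 and those of MUC13 from -0.18 to 0.30, against -1.68 and 1.64 for the genes themselves.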

How the data were processed

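Total RNA of SW480 cells was measured on 2 Affymetrix arrays, 1 per group. The deposited table holds log2 values, 1 per probe set and array. The submitters' processing notes name RMA as the authors' method. RMA brings arrays to a common distribution, which hides a shift of all transcripts. Its version and the genome build were not stated there. Of 33297 probe sets, 19460 had 1 symbol, 1754 several and 12083 none; symbols came from the platform annotation, updated through RefSeq (GRCh38.p14; 19429 found). For genes with several probe sets the one with the highest mean was used. A gene passed when its higher value was at or above 5.55. With 1 array per group, rules of size (2-fold and 1.5-fold) replaced a test. The number of arrays limits the precision. The genes, lists and rules were chosen with earlier results of these data known. Named are the 10 genes, TFAP2E, the 2 highest and 2 lowest of each mucin list (all if 4 or fewer passed), neighbours past 1.5-fold or beside these genes, and genes next to PARM1 in difference; others, such as VIL1, CDH1, C1GALT1, CD164 and dim genes, were chosen after their values were seen. Alternatives were 3 scalings, 3 filters, the mean of probe sets, a floor at percentile 20 and thresholds of 1.5-fold and 3-fold. Scripts (Python 3.11.15, statsmodels 0.14.6) were tested on simulated data.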

Additional observations from a re-analysis of the deposited data

How the results depend on the processing

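The difference of PARM1 ran from -1.68 to -1.65 and that of MUC13 from 1.64 to 1.67 over 3 other scalings. The filters and the mean of probe sets cannot change the difference of any of the 10 genes, which have 1 probe set each, and the thresholds do not enter it. Over the scalings and the floor, the largest shift was 0.10, for MUC17, which the floor put at 0. The counts changed with the filter. The count of the 10 genes past 2-fold, 1 with the filter used, was 2 with no filter, which lets MUC13 in, and 0 with a filter at percentile 75 or with both values required past the filter, which leave PARM1 out. The count of all genes past 2-fold, 23, was 13 with the filter at percentile 75, 15 with both values past the filter, 173 at 1.5-fold and 4 at 3-fold, as these settings are built. The median of the further transmembrane mucins, -0.29 on 2 genes, was 0.10 with both values past the filter, which leaves out MUC21. Of 53 medians, of the lists and of the 10 genes, 7 changed sign, and medians near 0 therefore have no settled direction. The median of all genes was 0.01 once the loess trend was taken out, 0.02 after quantile normalization and 0.07 after centring. The gel-forming list had no gene past the filter and gave no median. No paired analysis was possible because there was only 1 array per group. Signals below the median of all probe sets on both arrays limit what can be said of 7 of the 10 genes. TFF1 and TFF2 lay close to that median, and PARM1 lay below it on the TFAP2E array, so the limit touches them too.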

Other observations

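Of the dim genes on the mucin and differentiated intestinal cell lists, MUCL1 and SLC5A1, named after their values were seen, differed by at least 1.5-fold. MUCL1, a small mucin-like secreted protein, read 4.46 on the TFAP2E array and 5.32 on the empty vector array (-0.87). SLC5A1, the sodium-glucose transporter of enterocytes, read 4.42 and 5.04 (-0.62). In all, 1.51% of dim genes differed by at least 1.5-fold, close to the 1.5% of genes past the filter.

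The deposited table gave 1379 of its 33297 probe sets (4.14%) the identical value on both arrays, while 96 others differed by less than 0.002 without being identical. None of the 10 genes described was among them. Of the list genes 13 were, AGR3, CLCA1, SPINK4, WFDC2, ANXA10 and INSM1 among them, so that a difference of 0 for these genes is an exact tie in the table. The cause was not tested.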
